A study of Homo sapiens with 4 samples.

Results

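The genes described here encode the major plasma proteins that hepatocytes secrete, together with AFP (alpha-fetoprotein), the fetal counterpart of albumin. They were taken by gene name, with no threshold on a measured value although earlier results of these data were known, and all 10 (ALB, AFP, GC, TTR, RBP4, AHSG, FETUB, SERPINA1, AMBP and HPX) were found once each among the 58302 genes measured. Expression was measured by mRNA-seq in HepG2, a line derived from a human liver cancer, described in the labels as wild type. Of the 4 libraries, 1 was made from cells given DMSO for 24 h, 1 from cells given 1 mM melatonin for 24 h, and 1 from each treatment after 48 h. Melatonin is the pineal hormone N-acetyl-5-methoxytryptamine, and DMSO was its solvent control. With 1 library per condition and a single cell line, the variation from culture to culture is unknown, and melatonin could not be tested at either time.

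Hepatocytes release these proteins into the blood constitutively, and their genes are among the most actively transcribed in liver. Albumin carries fatty acids and many other small molecules and keeps up the osmotic pressure of plasma. AFP is made by the yolk sac and the fetal liver, is silenced after birth, and reappears in many liver cancers, where it serves as a serum marker. ALB and AFP arose by duplication and lie next to each other on chromosome 4, and the vitamin D binding protein gene GC belongs to the same family.

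Levels are in FPKM as deposited, that is, fragments divided by gene length in kilobases and by a library size. FPKM multiplied by gene length was a multiple of the same small unit within a library for 100% of the values, which gave the number of reads behind each value, between 21616676 and 23086025 reads on genes per library. The library size in the FPKM was 0.849 of the reads on genes under DMSO and 0.888 under melatonin at 24 h, then 0.950 and 0.973 at 48 h. Intervals in brackets are 95% intervals from the reads behind the values, exact Poisson for a level and exact conditional binomial for a ratio. Where a ratio at 48 h is set against that at 24 h, the interval is a normal approximation on the log scale. All of these intervals cover counting error only and say nothing of the spread between cultures. Genes of the mitochondrial genome held 19.96% of the reads under DMSO and 16.6% under melatonin at 24 h, then 9.77% and 11.9% at 48 h. Their part in the differences below was not tested, beyond the values given without them.

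HepG2 was checked against markers of liver and other cells. All 6 hepatocyte markers (APOA1, APOB, TF, KRT8, KRT18 and HNF4A) had an FPKM of at least 1 in every library. Of 5 cholangiocyte markers, KRT19, EPCAM and SOX9 did so as well, while KRT7 and CFTR had at most 3 reads in each library. Of 6 stellate and fibroblast markers, 4 had at most 3 reads in every library, and PDGFRB alone reached an FPKM of 1, with a summed level of the list between 0.804 and 4.33. All 5 endothelial markers stayed below 1, with a summed level between 0.606 and 1.22. Of 6 leukocyte markers, 5 stayed below 1 and CD14 had 1.10 at most, with a summed level between 0.285 and 1.17.

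The start regions of ALB and AFP are shown because these neighbours were both highly expressed and then behaved differently. By FPKM among the protein-coding genes, ALB ranked between place 13 and 15 and AFP between place 15 and 33. Each line gives the 250 bases before the gene start in RefSeq (GRCh38.p14, forward strand), chr4:73404037-73404286 for ALB and chr4:73435971-73436220 for AFP. Capitals mark TATAAA, the core of the TATA box to which the general transcription machinery binds, searched on both strands.
ALB: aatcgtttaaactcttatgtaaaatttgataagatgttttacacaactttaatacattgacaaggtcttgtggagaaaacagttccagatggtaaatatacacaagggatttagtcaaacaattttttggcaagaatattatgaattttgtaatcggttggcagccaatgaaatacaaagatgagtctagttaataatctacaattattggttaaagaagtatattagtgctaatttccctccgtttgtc
AFP: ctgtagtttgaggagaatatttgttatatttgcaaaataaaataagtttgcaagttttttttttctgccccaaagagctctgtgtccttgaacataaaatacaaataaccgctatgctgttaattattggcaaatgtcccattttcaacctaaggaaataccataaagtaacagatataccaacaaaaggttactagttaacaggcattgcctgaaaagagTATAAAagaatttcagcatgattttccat

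AFP had TATAAA from position -29 to -24, counted back from the base before the start, and these exact letters were not in the window of ALB. Of the 35116 RefSeq windows of this length, 10.7% held TATAAA on either strand. Among the 10 genes, 8 were in the RefSeq table, with 12 start windows in all, and TATAAA was in 4 windows of 3 genes. Besides AFP these were FETUB, from -30 to -25 in 1 window, and RBP4, from -31 to -26 in 1 window and on both strands from -227 to -220 in another. TTR and GC had no entry. A match is a description of the letters in the window, and binding was not measured.

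The 10 genes spanned more than 4 orders of magnitude in the same cells. Together they held 2.43% of all reads on genes under DMSO and 2.54% under melatonin at 24 h, then 2.83% and 2.46% at 48 h. ALB and SERPINA1 alone made up between 53.4% and 68.5% of those reads. ALB was the highest of the 10 in every library and ranked between place 13 and 15 by FPKM among the protein-coding genes. SERPINA1, AHSG, AFP and AMBP followed, all with an FPKM between 782 and 1902, then RBP4 between 301.3 and 340.4, TTR, and HPX. FETUB and GC stood at the bottom.

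**Figure D1:**
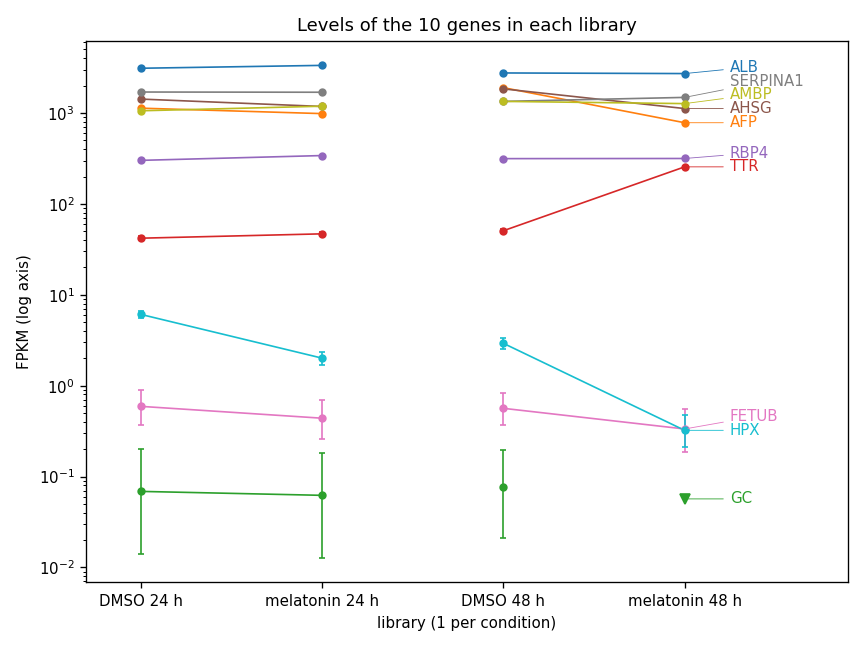
FPKM (log axis) of the 10 genes in the 4 libraries, with 95% exact Poisson intervals of the recovered reads as bars, lines joining DMSO and melatonin of the same time, and a triangle at the level of 3 reads where no read was found. TTR stood at 255.6 with melatonin at 48 h and at 50.6 or lower in the other libraries, while AFP and HPX were lowest with melatonin at 48 h.

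In the order of levels, most neighbours differed beyond counting error. The exceptions were AMBP and AHSG with melatonin at 24 h (FPKM of 1188.5 and 1180.7), AMBP and SERPINA1 with DMSO at 48 h (1342.8 and 1342.4) and FETUB and HPX with melatonin at 48 h (0.334 and 0.322). AFP covered the widest range among the genes with an FPKM above 100 in every library. It was the fourth with DMSO at 24 h, the second highest of the 10 with DMSO at 48 h, and the fifth in both melatonin libraries. Levels depend on the gene length used. The lengths in the files exceed those of the canonical GENCODE transcripts for all 10 genes, by the largest ratio for TTR with 2173 bp against 616 bp, and on the canonical length the FPKM of TTR with melatonin at 48 h would be 901.8.

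To ask how melatonin affected these genes, the log2 ratio of melatonin to DMSO was computed at each time after 1 had been added to every FPKM. A gene was called changed at a log2 ratio of at least 1 or at most -1, provided that at least 1 of the pair of libraries reached an FPKM of 1. GC and FETUB did not pass that minimum, so 8 of the 10 could be called. At 24 h, 1 of these 8, HPX, fell at least 2-fold and none rose, where 4.35% of the 13582 genes tested were called (1.42% higher and 2.93% lower). At 48 h, 3 of the 8 were called, with TTR higher and AFP and HPX lower, where 5.72% of 13805 genes were called (2.39% higher and 3.32% lower). HPX passed the minimum at 48 h only through its DMSO library (FPKM of 2.93 against 0.322 with melatonin), so its only possible call was lower. The median log2 ratio of the 8 was 0.05 at 24 h and -0.05 at 48 h, beside 0.02 and -0.02 over all genes tested. Among genes that reached an FPKM of 100, a background chosen after the values were seen, 1.58% were called at 24 h and 6.83% at 48 h.

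**Figure D2:**
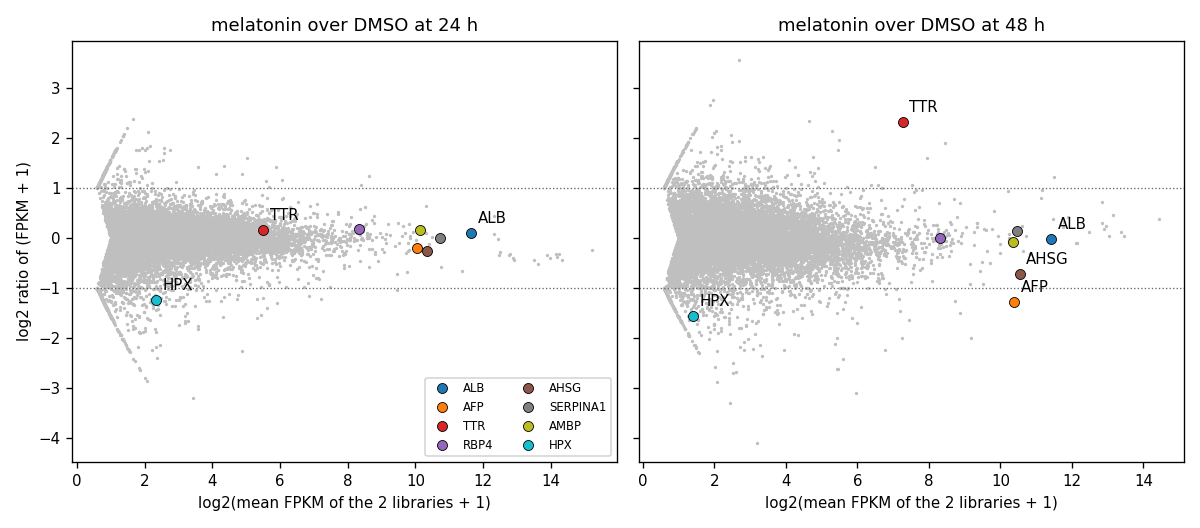
Log2 ratio of FPKM plus 1 with melatonin over DMSO against the log2 of the mean FPKM of the 2 libraries plus 1, for all genes tested (grey) and the 8 tested genes of the list (coloured, key in the left panel), at 24 h (left) and 48 h (right), with dotted lines at 1 and -1. TTR at 2.31 and AFP at -1.28 lie outside the dotted lines at 48 h and inside them at 24 h.

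TTR and RBP4 work together in plasma. Transthyretin carries thyroxine and binds retinol-binding protein 4, and the complex brings retinol from the liver to other tissues. TTR lies on chromosome 18 of hg38 from 31591726 to 31599021 (ENSG00000118271). Its FPKM was 41.9 (39.953 to 43.998) under DMSO and 46.8 (44.8 to 48.9) under melatonin at 24 h, then 50.6 (48.6 to 52.7) and 255.6 (251.1 to 260.2) at 48 h. The library of melatonin at 48 h stood alone, while the others lay close together. It rested on 12335 reads against 2412 with DMSO, a ratio of 5.05 (4.83 to 5.28) and a log2 ratio of 2.31, the fifth highest of the 13805 genes tested. At 24 h the ratio was 1.12 (1.05 to 1.19), and the ratio at 48 h was 4.52 times (4.18 to 4.89) that at 24 h.

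RBP4 (chromosome 10, 93591687 to 93601744, minus strand), by contrast, had an FPKM of 301.3 under DMSO and 340.4 under melatonin at 24 h, then 314.8 and 316.0 at 48 h. At 48 h its ratio of 1.00 (0.976 to 1.03) was not distinguishable from no difference at this depth. Within a library, where the library size cancels, TTR amounted to 0.139 (0.132 to 0.147) of RBP4 by FPKM under DMSO and 0.138 (0.131 to 0.144) under melatonin at 24 h, then 0.161 (0.154 to 0.168) and 0.809 (0.788 to 0.831) at 48 h. On the lengths of the canonical transcripts these ratios would be 0.363, 0.358, 0.419 and 2.11, so that TTR would stand above RBP4 in the last library. At 48 h, then, melatonin and DMSO differed in the level of TTR and not detectably in that of its partner. Of the protein-coding genes within 500 kb of TTR, 5 were tested at 48 h, a choice made after the values were seen, and their log2 ratios lay between -0.53 and 0.58. B4GALT6 and DSG2, the closest of them, had log2 ratios of 0.58 and -0.20.

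AFP was the highly expressed gene of the list that was called lower with melatonin at 48 h. It lies on chromosome 4 from 73431138 to 73456174 (ENSG00000081051), 9.73 kb from ALB (ENSG00000163631, from 73397114 to 73421412) on the same strand. Its FPKM was 1131 (1122 to 1139) under DMSO and 985 (978 to 993) under melatonin at 24 h, then 1902 (1892 to 1912) and 782 (776 to 789) at 48 h. The DMSO library of 48 h was the highest of the 4 and the melatonin library of 48 h the lowest. The ratio of melatonin to DMSO was 0.871 (0.862 to 0.881) at 24 h and 0.411 (0.407 to 0.415) at 48 h, a 2.43-fold lower level from 56594 against 135939 reads. The ratio at 48 h was 0.472 times (0.465 to 0.479) that at 24 h. Much of the distance at 48 h lay on the DMSO side, since AFP was 1.68-fold (1.67 to 1.70) higher with DMSO at 48 h than at 24 h, and 0.794 times (0.785 to 0.803) as high with melatonin at 48 h as at 24 h.

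ALB was not called at either time. Its FPKM was 3109 under DMSO and 3343 under melatonin at 24 h, then 2760 and 2717 at 48 h. The ratio of melatonin to DMSO was 1.08 (1.07 to 1.08) at 24 h and 0.985 (0.979 to 0.991) at 48 h. Across the settings tried, the log2 ratio of ALB lay between 0.08 and 0.28 at 24 h and between -0.08 and 0.05 at 48 h. The ratio of AFP to ALB within a library does not depend on the library size. By FPKM it was 0.364 (0.361 to 0.367) under DMSO and 0.295 (0.292 to 0.297) under melatonin at 24 h, then 0.689 (0.685 to 0.694) and 0.288 (0.285 to 0.291) at 48 h. The DMSO library of 48 h had the highest ratio, and both melatonin libraries lay below both DMSO libraries. AFM, which encodes afamin, the next gene of the albumin family on that chromosome, had an FPKM of 0.146 at most. GC, also on chromosome 4 (71741693 to 71804041, minus strand), had 3, 3, 4 and 0 reads (DMSO and melatonin at 24 h, DMSO and melatonin at 48 h), at or near the floor of 3 reads, so no fold is given.

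**Figure D3:**
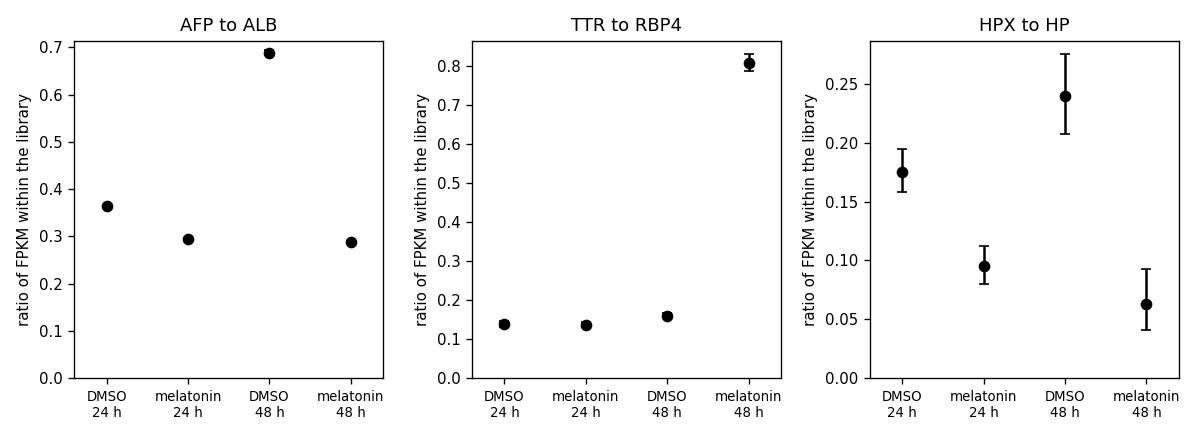
Ratio of FPKM between a pair of genes within each library, for AFP to ALB, TTR to RBP4 and HPX to HP, with 95% exact conditional binomial intervals as bars and axes that start at 0. AFP to ALB peaked at 0.689 with DMSO at 48 h, TTR to RBP4 reached 0.809 with melatonin at 48 h, and HPX to HP was lower in each melatonin library than in the DMSO library of its time.

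HPX encodes hemopexin, which binds free heme in plasma and delivers it to the liver for breakdown. It lies on chromosome 11 from 6431049 to 6442617 (ENSG00000110169) and was expressed at a low level in these cells. Its FPKM was 6.09 (5.51 to 6.71) under DMSO and 2.01 (1.70 to 2.36) under melatonin at 24 h, then 2.93 (2.56 to 3.33) and 0.322 (0.211 to 0.473) at 48 h, from 406, 148, 233 and 26 reads. Each melatonin library was below the DMSO library of the same time, and HPX was the gene of the list that was called at both times, with log2 ratios of -1.24 and -1.57. As a plain ratio, HPX was 3.03-fold (2.505 to 3.68) lower with melatonin at 24 h and 9.07-fold (6.04 to 14.2) lower at 48 h. The log2 scale with 1 added understates this difference, because the levels are low.

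Haptoglobin (HP), which captures free hemoglobin in the same line of defence, was lower with melatonin as well, its FPKM being 34.7 under DMSO and 21.2 under melatonin at 24 h, then 12.2 and 5.15 at 48 h. The difference in HPX was the larger. HPX amounted to 0.175 (0.158 to 0.194) of HP under DMSO and 0.0950 (0.0799 to 0.112) under melatonin at 24 h, then 0.239 (0.207 to 0.275) and 0.0626 (0.0406 to 0.0927) at 48 h. Around HPX, 11 protein-coding genes within 500 kb were tested at 48 h, and their log2 ratios lay between -0.14 and 0.77.

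The fetuins AHSG and FETUB are paralogs that lie side by side on the plus strand of chromosome 3, from 186612923 to 186621318 and from 186635969 to 186653141. Fetuin-A, the product of AHSG, binds calcium phosphate and prevents it from precipitating in blood and soft tissue. AHSG had an FPKM of 1424 (1413 to 1435) under DMSO and 1181 (1171 to 1190) under melatonin at 24 h, then 1845 (1833 to 1856) and 1120 (1111 to 1129) at 48 h. The order of the libraries was that of AFP at 48 h, with DMSO highest and melatonin lowest, although the ratio of 0.607 (0.601 to 0.613), a log2 ratio of -0.72, stayed inside the 2-fold threshold. At 24 h the ratio was 0.829 (0.820 to 0.839). FETUB, a protease inhibitor of the same family, was more than 3 orders of magnitude lower, with an FPKM of 0.592, 0.438, 0.563 and 0.334 (DMSO and melatonin at 24 h, DMSO and melatonin at 48 h) from 22, 18, 25 and 15 reads. A difference with melatonin was not detectable at this depth, since the ratios of 0.741 (0.374 to 1.45) at 24 h and 0.593 (0.290 to 1.17) at 48 h both had intervals that included 1. The antisense RNA gene AC068631.1 spans both fetuin genes, with 10 to 18 reads per library, and the counting is not stated to use strand, so the few reads of FETUB could not be separated from it. FFAR4 overlaps RBP4 on the opposite strand, with 3 reads at most.

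The protease inhibitors SERPINA1 and AMBP differed by less than 2-fold between any of the libraries. SERPINA1 (chromosome 14, 94376747 to 94390693, minus strand) encodes alpha-1 antitrypsin, the main inhibitor of neutrophil elastase, and had an FPKM of 1702 under DMSO and 1693 under melatonin at 24 h, then 1342 and 1486 at 48 h. Its ratio was 0.994 (0.988 to 1.00) at 24 h, not distinguishable from 1 at this depth and with a log2 ratio between -0.03 and 0.17 across the settings tried, and 1.11 (1.10 to 1.11) at 48 h. AMBP (chromosome 9, 114060127 to 114078472, minus strand) encodes a precursor that is cut into the lipocalin alpha-1-microglobulin and the inhibitor bikunin. Its FPKM was 1058 under DMSO and 1189 under melatonin at 24 h, then 1343 and 1269 at 48 h, with ratios of 1.12 (1.11 to 1.14) and 0.945 (0.935 to 0.956). Neither gene was called in any of the 4 comparisons.

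**Figure D4:**
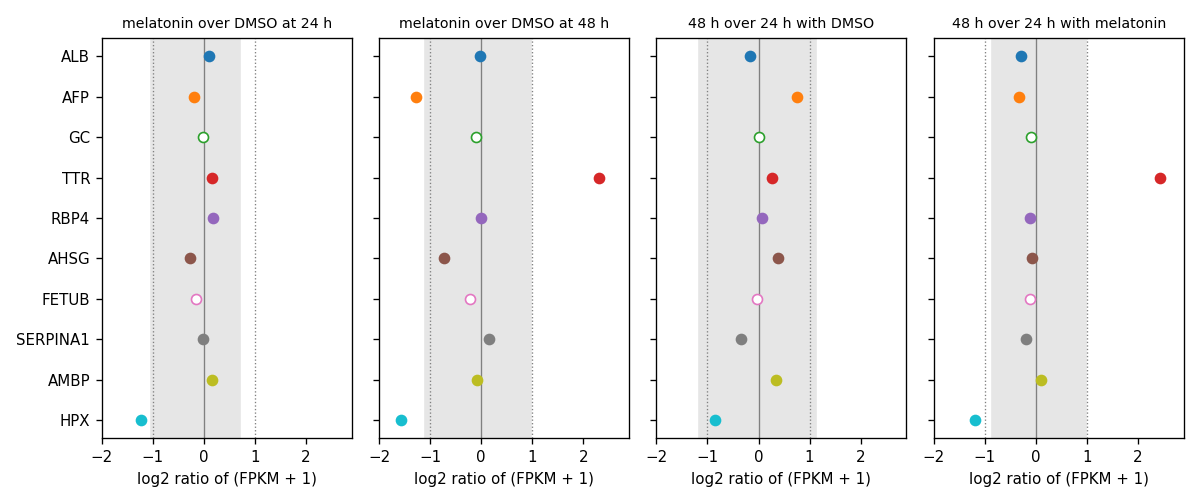
Log2 ratio of FPKM plus 1 for the 10 genes in the 4 comparisons, with the central 95% of all genes tested in grey and dotted lines at 1 and -1, and with open circles for GC and FETUB, which did not pass the FPKM minimum. TTR stands at 2.31 and 2.42 in the comparisons whose first library is that of melatonin at 48 h, and HPX lies below 0 in all 4.

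Time in culture was compared within each treatment, and these comparisons share their libraries with those of melatonin. With DMSO, 48 h over 24 h, none of the 8 genes was called, where 7.74% of 13854 genes were. AFP had a log2 ratio of 0.75, AHSG of 0.37, AMBP of 0.34 and HPX of -0.85, and the 8 had a median of 0.16 beside 0.00 over all genes tested. Under TPM scaling AFP was called at 1.25, while the median over all genes moved to 0.46. With melatonin, 48 h over 24 h, TTR was called higher, with a ratio of 5.46 (5.21 to 5.72), and HPX lower, with a ratio of 0.160 (0.101 to 0.245), where 4.15% of 13489 genes were called. HPX passed the FPKM minimum in this comparison only through the library of 24 h (2.01 against 0.322), so its only possible call was lower. AFP had a log2 ratio of -0.33 there and ALB of -0.30, and the median of the 8 was -0.15 beside -0.04. AFP thus stood higher after 48 h with DMSO. With melatonin over time the log2 ratio of AFP was below 0 but depended on the scaling, from -0.33 to -0.06 across the settings tried. TTR differed by more than 2-fold with melatonin and had a ratio of 1.21 (1.13 to 1.29) with DMSO.

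To place the 10 genes among similar ones, 48 other plasma protein genes of the liver were looked up, including apolipoproteins, fibrinogen chains, complement and serpins. At 24 h, 2 of the 41 tested fell at least 2-fold and none rose, where 2.93% of all genes tested fell and 1.42% rose. Of the 41, 12 stood above 0 and 29 below, with a median log2 ratio of -0.15. Rescaling to TPM moved the median of all genes from 0.02 to 0.17 at that time, a shift about as large as this median. At 48 h, 8 of 40 fell and none rose, where 3.32% of all genes tested fell and 2.39% rose. Of the 40, 5 stood above 0 and 35 below, with a median of -0.44 beside -0.02 over all genes tested. The split of all genes around 0 is not given here. CPB2 (-2.63), APOH (-2.002) and VTN (-1.50) had the largest log2 ratios at 48 h. Of the 8 genes tested here, 3 stood above 0 at 48 h. The highest log2 ratio among the other plasma protein genes at that time was 0.81 for APOA2, beside 2.31 for TTR. In bulk samples, a change in the share of cells that express a gene and a change in RNA per cell cannot be told apart.

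**Figure D5:**
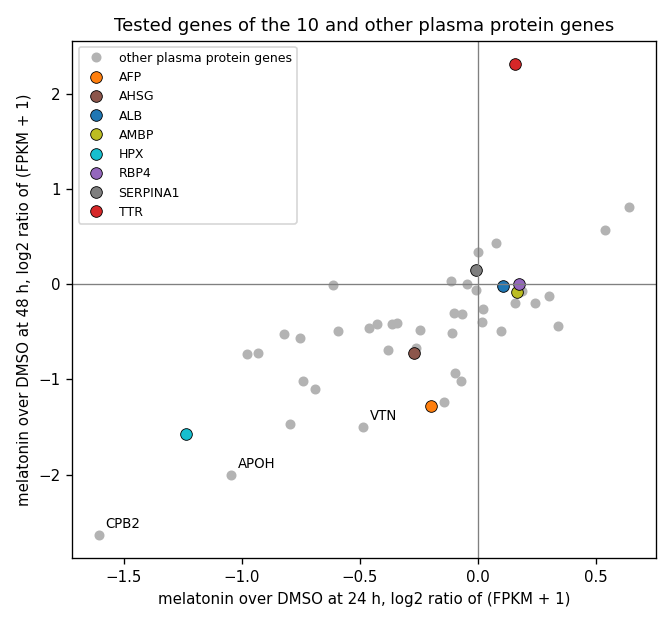
Log2 ratio of FPKM plus 1 with melatonin over DMSO at 24 h (horizontal) and 48 h (vertical) for the 8 tested genes of the list (coloured) and the other plasma protein genes tested at both times (grey). TTR stands alone at the top (2.31 at 48 h), HPX lies at the lower left (-1.24 and -1.57), and AFP lies low at 48 h (-1.28) with -0.20 at 24 h.

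Binding partners and receptors of these proteins form a list of 13 genes, of which 8 were tested at each time of melatonin treatment and none was called. Their median log2 ratio was -0.14 at 24 h and -0.11 at 48 h. ITIH2, a heavy chain that is joined to bikunin, was well expressed, with an FPKM between 850 and 1111. ITIH3 and ITIH1, further heavy chains, had log2 ratios of -0.67 and -0.56 at 48 h, and AMN, part of a receptor for filtered plasma proteins, had 0.86. FCGRT, the receptor that returns albumin to the circulation, had 0.07, LRP1, which takes up the complex of hemopexin and heme, had 0.42, and STRA6, a receptor for RBP4, stayed below an FPKM of 1.

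Liver transcription factors known to act on these genes form a list of 24, of which 20 were tested. None was called at 24 h (median -0.12). At 48 h, where 3.32% of all genes tested fell, 1 fell (median -0.18). That was NR1H4, the bile acid receptor FXR, with a log2 ratio of -0.97 at 24 h and -1.52 at 48 h, its FPKM at 48 h being 14.3 under DMSO and 4.33 under melatonin. FOXA2, a factor that binds the enhancers of many liver genes, had -0.998 at 48 h, just inside the threshold, and CEBPD had -0.74. HNF4A, a nuclear receptor that sustains the hepatocyte program, had an FPKM of 59.5 under DMSO and 53.7 under melatonin at 24 h, then 34.9 and 43.8 at 48 h. ZHX2 and ZBTB20, repressors of AFP after birth, had log2 ratios of -0.63 and -0.17 at 24 h and of -0.28 and -0.02 at 48 h. ZBTB20 had an FPKM below 1 in every library. From 24 h to 48 h, ZHX2 had a log2 ratio of -0.59 with DMSO and -0.24 with melatonin.

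Because AFP is a fetal gene, 14 other genes of fetal liver and liver cancer were compared. None of the 11 tested at 24 h or of the 12 tested at 48 h was called, with medians of -0.23 and -0.22. PEG10, an imprinted gene, had the largest log2 ratio at 48 h, with 0.95, followed by IGF2BP1 and AKR1B10 with -0.42 each. With DMSO over time, 48 h over 24 h, 1 of the 12 tested rose at least 2-fold and 4 fell (median -0.48), where 7.74% of all genes were called. With melatonin over time, 2 of the 11 tested fell and none rose (median -0.45), where 4.15% of all genes were called. Of 13 housekeeping genes none was called at 24 h or 48 h, with medians of 0.01 and 0.05, and GUSB and HPRT1 had log2 ratios of 0.69 and 0.45 at 48 h. The 6 hepatocyte markers had medians of -0.13 and -0.42 with none called, with TF (-0.93), KRT18 (-0.76), APOA1 (-0.49) and KRT8 (-0.35) below 0 at 48 h and HNF4A (0.32) and APOB (0.04) above it. The 3 cholangiocyte markers tested had -0.41 and -0.79 with none called, KRT19 (-0.84) and EPCAM (-0.79) being lower and SOX9 at 0.07. The part of these markers in the differences of AFP, AHSG and HPX was not tested. PDGFRB, the stellate marker above 1, had -0.66 and 0.22. It was higher at 48 h than at 24 h both with melatonin (log2 ratio 1.59, from an FPKM of 0.774) and with DMSO (0.71). PECAM1, the endothelial marker with most reads, had -0.06 and 0.10.

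Finally, the genes whose 4 values lay nearest to those of AFP and of ALB were sought among the 11350 genes that had 50 reads or more in every library, by the largest gap in log2 of FPKM plus 1 after centring each gene on its mean. Nearest to AFP were CAPG (largest gap 0.02), IRX3 (0.13) and HOXA3 (0.13). CAPG had an FPKM of 2.57, 2.08, 5.09 and 1.45 (DMSO and melatonin at 24 h, DMSO and melatonin at 48 h). Nearest to ALB were PPM1M (0.01), WTAP (0.01) and STAG2 (0.02). The 1 added to each FPKM shrinks the differences of genes at low levels, such as CAPG and PPM1M (FPKM of 1.59 at most for PPM1M). A near match on this scale therefore need not hold for plain ratios of FPKM. With 4 libraries the search is a description of like profiles and no more.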

How the data were processed

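mRNA-seq of HepG2 cells was analysed from the deposited gene tables, 1 library per condition. The authors purified polyadenylated RNA and, by their methods, aligned the paired-end reads with MapSplice to hg38 and took expression with Cufflinks, whereas the submitters' processing notes list Bowtie2 2.0.6, TopHat2 2.0.9, Cufflinks 2.1.1 and Cuffdiff 2.1.1 without roles. The authors deposited FPKM per Ensembl gene, beside a gene length whose definition is not given in the sources used here.

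Reads were recovered from FPKM times length (a value of 1 read within 0.01 reads of a whole number, and wider in proportion to the square root of the count), and depth was 21616676 to 23086025 reads on genes. Across all genes, log2((FPKM + 1)/(FPKM + 1)) was computed, and genes reaching an FPKM of 1 in at least 1 library of the pair were called at 1 or more or at -1 or less. No p-value was computed. The 10 genes and the gene lists (other plasma proteins, partners, liver transcription factors, fetal liver genes, cell type markers, housekeeping genes) were chosen with earlier results of these data known. All 10 genes were named, and from each other list the 3 largest log2 ratios at 48 h among genes with at least 50 reads. Further list genes were named after their values were seen. Values of some list genes are not reported here. Alternatives were other library sizes, TPM, a pseudocount of 0.1, centring and a 1.5-fold threshold. Scripts were tested on simulated data. Canonical transcript lengths came from GENCODE 44. Python 3.11, numpy 2.4.6, pandas 2.3.3, scipy 1.17.1 and matplotlib 3.10.9 were used.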

Additional observations from a re-analysis of the deposited data

Results flagged for a closer look

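For ALB and AMBP, the ratio of melatonin to DMSO lay on opposite sides of 1 at 24 h and 48 h, with both intervals apart from 1 by counting error. The ratio of ALB was 1.08 at 24 h and 0.985 at 48 h, and that of AMBP was 1.12 at 24 h and 0.945 at 48 h. With 1 library per condition, the difference between the times was not tested for either gene. Under other library sizes the log2 ratio of ALB at 48 h lay between -0.08 and 0.05, so that its side of 0 depended on the scaling, whereas that of AMBP lay between -0.14 and -0.01.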

How the results depend on the processing

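The counts of 1 called gene with melatonin at 24 h and of 2 with melatonin over time held under each library size, pseudocount and threshold tried. With melatonin at 48 h the count of 3 held under each library size and pseudocount, and became 4 at 1.5-fold, where AHSG joined. The share of all genes called under these alternatives is not given here. With DMSO over time, the count of 0 became 1 with a pseudocount of 0.1 (HPX) and 1 with TPM (AFP), and 2 at 1.5-fold (AFP and HPX). TPM moved the median of all genes from 0.02 to 0.17 at 24 h, from 0.00 to 0.46 with DMSO over time and from -0.04 to 0.23 with melatonin over time, and library sizes as plain sums of reads moved it to 0.14 with DMSO and 0.08 with melatonin over time. Over all 10 genes the median log2 ratio was -0.01 at 24 h, -0.09 at 48 h, 0.04 with DMSO over time and -0.11 with melatonin over time. At 24 h it was -0.13 as a mean. At 48 h it was -0.35 with a pseudocount of 0.1 and -0.22 with TPM. The 10 include GC and FETUB, which did not pass the FPKM minimum. With a pseudocount of 0.1 their log2 ratios at 48 h moved from -0.11 to -0.82 and from -0.23 to -0.61. With DMSO over time the median over the 10 was 0.45 with TPM. With melatonin over time it was -0.24 with a pseudocount of 0.1, 0.032 with TPM and 0.013 as a mean. The cause of these shifts was not tested. The log2 ratio at 48 h ran from 2.27 to 2.38 for TTR, from -1.34 to -1.21 for AFP and from -2.84 to -1.49 for HPX. In 280 recomputed values of single genes, 108 moved beyond counting error and none of the called ones reversed. The ratio of AFP to ALB was 0.351, 0.284, 0.665 and 0.278 by reads, and 0.331, 0.268, 0.627 and 0.262 on canonical lengths, chosen after seeing the data (DMSO and melatonin at 24 h, DMSO and melatonin at 48 h). Without mitochondrial genes the 10 genes held 3.03%, 3.04%, 3.13% and 2.79% of the reads in that order. No fit with a replicate block was made, since the labels number no replicates. Depth limits GC, FETUB and HPX with melatonin at 48 h.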
